A study of Mus musculus with 12 samples.

Results

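The comparison described here set cultured fibroblasts from the mouse colon that were labelled Prkcz-/- and carried a guide against Sox2 (Prkcz-/- sgSox2, the Sox2-guide libraries) against fibroblasts labelled WT with a guide named sgScr (WT sgScr, the WT libraries). It asked which transcripts differed from wild type once Sox2 had been targeted in cells labelled Prkcz-/-. The series has 12 libraries in 3 groups of 4: Prkcz-/- sgSox2, Prkcz-/- sgScr and WT sgScr. The comparison took 8 of them, and the level in the Prkcz-/- sgScr libraries is given beside them for part of the genes. Where it is not given, the text does not say whether Prkcz-/- sgScr also differed from WT. Both Prkcz-/- comparisons share the WT libraries. All cells were C57BL/6, from the colon at an age of 12 weeks, were kept in DMEM containing 10% fetal bovine serum, and were harvested without treatment 24 h after plating at about 80% confluency. The 2 groups thus differ in the Prkcz genotype and in the guide together, and the shares of each in a difference cannot be told apart in this comparison. The labels do not say whether a group was 1 clone or a pool, nor what sgScr targets. The series calls the replicates biological but names neither mice nor cultures as their source, and the p-values below thus rest on library-to-library spread, which may be technical.

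Of 23106 genes in the table, 12676 averaged 10 or more normalised reads across all 12 libraries and were compared, and 10430 were below that level. A normalised read is 1 read per 10000000 reads assigned to genes. Differences are Sox2 guide minus WT on the scale of log2(normalised reads + 1), which understates the change of low genes. A gene was called where limma's Benjamini-Hochberg adjusted p over all 12676 genes was under 0.05. Means are given ± SD over the 4 libraries of a group.

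The product of Prkcz is the zeta isoform among atypical protein kinases C, which binds the scaffold protein p62 and polarity proteins. Sox2 drives transcription in pluripotent cells and in neural precursors and is normally silent in most mesenchyme. Fibroblasts of the colon lay down collagen and other matrix and supply the epithelium with Wnt, BMP and growth factor signals, and they also react to infection. Type I interferons act through STAT2 and IRF9, among others, to switch on antiviral genes such as the Oas, Ifit and Gbp families, and fibroblasts are a classic cell type in which that response was studied. Prostaglandins and the phosphatases and Sprouty proteins that restrain ERK signalling are other well-known products of activated fibroblasts.

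Depth was 4.10 ± 1.07 M reads in the Sox2-guide libraries and 3.06 ± 0.234 M reads in the WT libraries, within 2.67 to 5.20 M over all 8. Sox2-guide replicate 1 stood apart from the other 3 of its group: 4.29% of its reads were mitochondrial, against 9.39 to 10.3% in the others and 10.5 to 10.7% in the WT libraries. Of 9444 genes that averaged 50 or more normalised reads in the 8 libraries, 178 lay at least 1 log2 unit below all 3 other Sox2-guide libraries in it and 8 above. The counts below the others for replicates 2 to 4 were 6 to 23. Xaf1, an interferon-induced proapoptotic factor, had 129, 999, 1192 and 1089 normalised reads in the 4 Sox2-guide libraries. Snord89, a small nucleolar RNA, had 3.85, 545, 712 and 519. The other genes farthest below the rest in that library were Hist1h2an, Hist2h2ac, Ripk1 and Mtbp. Of the 8 above, Snrpn, Ctnnd2, Mfap5 and Thy1 had 1 read in that library and none in the other 3, so the count above the others says little about it. Counts that lead the paragraphs below are therefore also given without that library where they move by more than 1.5 times.

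The cells were checked against markers of the colon's cell types. Of 12 general fibroblast markers 11 were tested, and Col1a1, Col1a2, Vim, Fn1 and Sparc were among the abundant transcripts of both groups. Of the 11, 4 were called higher and 6 lower. Among the lower, Thy1 averaged 0.481 in the Sox2 guide and 942 in WT. Dcn averaged 31.5 and 1374 and Pdgfra 40.9 and 249, in the same order. Lum, below the filter and not tested, had 0 reads in the Sox2 guide and a mean of 6.80 in WT. The summed level of the list was 98824 to 107110 normalised reads in the Sox2-guide libraries and 81609 to 85863 in the WT libraries. Defining markers of epithelium, leukocytes, endothelium and glia were at or near 0: Epcam averaged 3.13 ± 2.16 in the Sox2 guide and 8.29 ± 2.41 in WT, Ptprc 0 and 1.496 ± 2.99, Pecam1 1.52 ± 1.87 and 3.21 ± 2.46, and Sox10 0 and 0.748 ± 1.496. Summed over their lists, endothelial markers reached 476 to 571 in the Sox2 guide and 162 to 235 in WT, through Kdr, Flt1 and Egfl7. Cdh5, below the filter and not tested, went the other way, with 0 reads in the Sox2 guide and a mean of 18.2 in WT. Leukocyte markers reached 37.5 to 65.4 and 29.6 to 43.3, epithelial markers 13.4 to 38.5 and 131 to 174, glial and neuronal markers 545 to 613 and 409 to 608, and smooth muscle markers 336 to 401 and 588 to 705, in the same order. Of 4 tested glial and neuronal markers, Elavl4 (78.0 against 19.7) and Tubb3 (383 against 263) were called higher and Uchl1 (95.5 against 193) lower. Of 7 tested smooth muscle markers 5 were lower and none higher. In Prkcz-/- sgScr these 2 lists summed to 917 to 1107 and 1910 to 2126. Summed mesothelial markers were 299 to 499.9 in the Sox2 guide, 10.2 to 16.2 in Prkcz-/- sgScr and 1139.7 to 1304 in WT, and both tested members were called lower. Of these, Msln, mesothelin, averaged 358 ± 84.6 in the Sox2 guide, 0.782 in Prkcz-/- sgScr and 1111 ± 56.2 in WT, and Krt19, also an epithelial keratin, 12.5 ± 4.91, 4.601 and 102 ± 28.1. Pericyte markers summed to 66.8 to 88.9 in the Sox2 guide, 376 to 424 in Prkcz-/- sgScr and 188 to 284 in WT, with 2 of 4 tested members lower, Mcam and Cspg4. Mcam averaged 26.3 in the Sox2 guide, 98.7 in Prkcz-/- sgScr and 102 in WT. Cspg4 had 0 reads in the Sox2 guide and in Prkcz-/- sgScr. Markers of interstitial cells of Cajal, the gut's pacemaker cells, summed to 28.9 to 49.4, 61.5 to 87.5 and 138 to 215 in the same 3 groups, with Ano1, their chloride channel, lower at 3.13 ± 2.16 in the Sox2 guide against 138 ± 36.3 in WT. Markers of fat, cartilage, bone and skeletal muscle summed to 882 to 1017 in the Sox2 guide, 919 to 1152 in Prkcz-/- sgScr and 1195 to 1443 in WT, with 2 of 3 tested members lower. The part of all these markers in the results below was not tested. In bulk RNA, fewer cells of a type and less RNA per cell cannot be told apart.

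The genes of the design and title came first. Prkcz had 30.8, 28.9, 52.5 and 27.2 normalised reads in the Sox2-guide libraries, a mean of 21.3 in the Prkcz-/- sgScr libraries, and 0 in every WT library. The group labelled knockout thus held more 3' reads of the gene than the group labelled WT, at least 14.2-fold against a floor of 3 reads over the WT group. A 3' tag counts any transcript that ends there, and the labels do not give the deleted part of the gene, so these reads check neither label. Sox2 had 0 reads in every Sox2-guide library, 1293, 1306, 1330.0 and 1459 normalised reads in the Prkcz-/- sgScr libraries and 0, 3.61, 0 and 3.29 in the WT libraries. Sfrp1, a secreted Wnt antagonist, had 61.5, 60.1, 86.2 and 71.6 in the Sox2-guide libraries, a mean of 15718 in the Prkcz-/- sgScr libraries, and 29.2, 10.8, 17.96 and 9.86 in the WT libraries. Sfrp2, its relative, had 90.4, 89.0, 63.7 and 64.2, a mean of 272, and 26.0, 36.1, 50.9 and 29.6 in the same order. Both Sfrp genes were higher in all 4 Sox2-guide libraries than in any WT library and below the Prkcz-/- sgScr mean. By an exact two-sided permutation test of mean log2 levels over the 70 assignments of 8 libraries, p was 0.0286 for Prkcz, Sfrp1 and Sfrp2, the smallest that 4 against 4 allows, and 0.429 for Sox2. Adjusted over the 4 genes these were 0.0381 and 0.429. Sox2 overlaps another gene on its strand and Sfrp2 one on the other strand, so shared reads make both values uncertain.

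The Sox2-guide libraries were far from WT. Of the 12676 genes 6596 were called (52%), 3813 higher (30.1%) and 2783 lower (22%). At a fold of at least 2, 2412 were called (19%), 1360 higher and 1052 lower, and 212 of the higher and 219 of the lower genes passed 8-fold. The groups did not overlap for 5902 genes (46.6%). The median difference over all tested genes was 0.08 (quartiles -0.38 and 0.55), and the root mean square difference between group means was 1.17 log2 units, against 0.66 between Sox2-guide replicates and 0.60 between WT replicates. Counting tools that scale by a reference other than the total moved the balance: DESeq2 on the recovered reads called 2958 genes higher and 3230 lower, 47.8% higher against 57.8% in limma. Directions below hold under each of the scalings tried unless said.

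**Figure D1:**
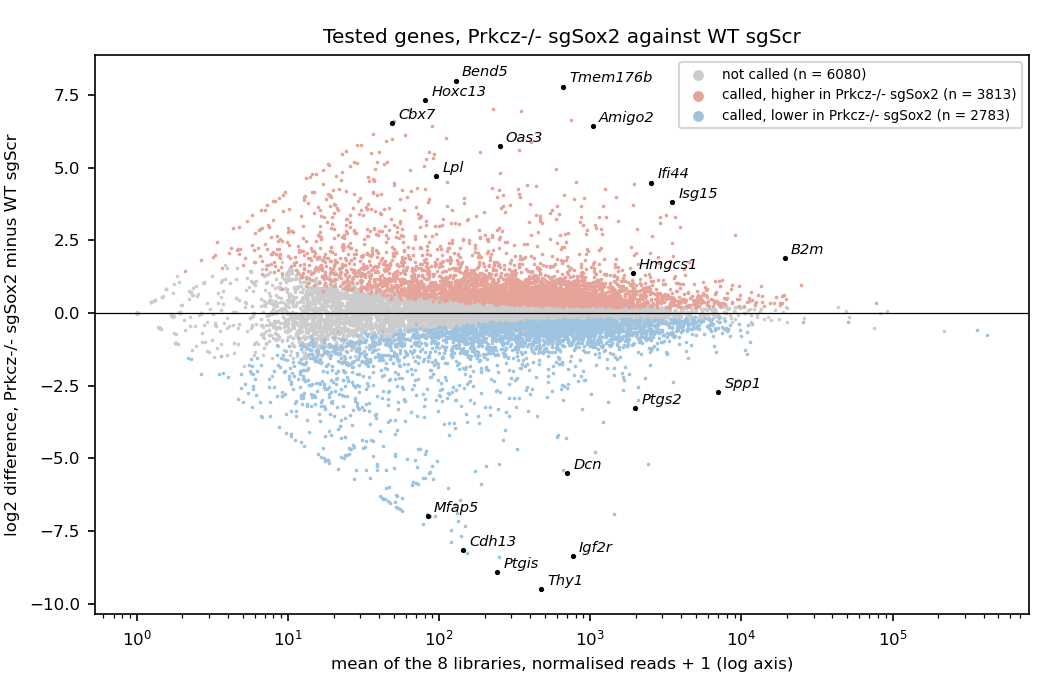
Each point is 1 of the 12676 tested genes, placed by its mean over the 8 libraries (normalised reads + 1, log axis) and by its log2 difference, Sox2 guide minus WT. Called genes are coloured by direction (3813 higher, 2783 lower), and named genes show that changes of 4 or more log2 units occurred at all but the highest levels.

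The genes highest over WT included several with no reads in WT. Bend5, which encodes a BEN-domain protein, had 213, 278, 251 and 279 normalised reads in the Sox2-guide libraries and 0 reads in all 4 WT libraries, at least 104-fold higher. Hoxc13, the most 5' gene of the Hoxc cluster, had 167, 178, 161 and 133 against 0, at least 65.2-fold higher. Il2rg, the common gamma chain of interleukin receptors, had 144, 109, 109 and 138 against 0, at least 51-fold higher. None of these WT libraries held a single read of these genes. The Prkcz-/- sgScr libraries held them at means of 573 (Bend5), 405 (Hoxc13) and 3.92 (Il2rg).

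Other strong increases were of genes expressed at a trace in WT. Tmem176a and Tmem176b, neighbouring genes for membrane proteins of antigen-presenting cells that overlap each other, averaged 1465 ± 139 and 1302 ± 206 in the Sox2 guide against 13.9 ± 2.88 and 7.34 ± 5.48 in WT. Amigo2, a cell adhesion protein whose gene overlaps Pced1b on the other strand, averaged 2050.1 ± 221 against 22.8 ± 4.89 (log2 difference 6.44 ± 0.16 SE, adjusted p = 2.1e-14). Runx3, a Runt-domain transcription factor, averaged 789 ± 76.0 against 13.4 ± 5.31. Slc24a3, a sodium, potassium and calcium exchanger, averaged 689 ± 63.8 against 6.80 ± 4.90. Their Prkcz-/- sgScr means were 1053, 753, 403, 276 and 2054, all above WT, with Slc24a3 above the Sox2 guide as well. Gbp9, an interferon-induced GTPase that overlaps its near copy Gbp4, averaged 214 ± 24.02 against 5.09 ± 6.36. Lrrc75b, a leucine-rich repeat protein, averaged 116 ± 23.3 against 1.496 ± 2.99, the WT value from 2 reads, 70.8-fold higher by pooled reads, with an exact 95% counting interval of 19.3 to 589.

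The genes farthest below WT were often close to silent in the Sox2-guide libraries. Thy1, the fibroblast surface antigen CD90, had 1.92, 0, 0 and 0 normalised reads in the Sox2-guide libraries against 903, 1004, 835 and 1025 in the WT libraries, 1539-fold lower by pooled reads, with an exact 95% counting interval of 276 to 60828. Its mean in Prkcz-/- sgScr was 146, between the 2 groups. Ptgis, prostacyclin synthase, had 0 reads in all 4 against 481, 451, 509 and 486, at least 264-fold lower. Mab21l2, a developmental regulator, had 0 against 305, 303, 305 and 299, at least 166-fold lower. In each of these 3 genes the lowest WT library lay far above the highest Sox2-guide library. Cdh13, a cadherin held to the membrane by a lipid anchor, had 0 reads in the Sox2 guide, a mean of 696 in Prkcz-/- sgScr and 286, 285, 263 and 302 in WT, at least 155-fold lower than WT in the Sox2 guide. Igf2r, the receptor that clears IGF2, had 3.85, 4.45, 3.75 and 2.47 in the Sox2 guide, a mean of 1224 in Prkcz-/- sgScr and 1351, 1704, 1784 and 1245 in WT, and overlaps Airn on the other strand. Spock3, a matrix proteoglycan, had 1 read in the Sox2-guide group against 497 ± 84.7 in WT, 818-fold lower by pooled reads, with an exact 95% counting interval of 146 to 32374. Hgf, hepatocyte growth factor, had 2 reads against 263 ± 37.9, 215-fold lower by pooled reads, with an exact 95% counting interval of 58.9 to 1780.0. Angptl7, an angiopoietin-like secreted protein, had 2 reads against 293 ± 58.5, 241-fold lower by pooled reads, with an exact 95% counting interval of 66.2 to 1996. Each of these 3 genes was thus close to absent from the Sox2-guide libraries. Trbc2, a T cell receptor constant segment with a near-identical copy, had 0 reads against 247, 235, 230.5 and 233, at least 129-fold lower. Mcpt8, a mast cell and basophil protease with related neighbours, had 1 read against 277 ± 41.6, 455-fold lower by pooled reads, with an exact 95% counting interval of 81.1 to 18015. Tnfrsf26, a decoy death receptor, had 1 read against 236 ± 23.4, 386-fold lower by pooled reads, with an exact 95% counting interval of 68.8 to 15312. Snhg14, the long RNA of the imprinted Snrpn region, had 0 against 185, 148, 132 and 151, at least 84.2-fold lower, and overlaps Ube3a on the other strand.

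The gene lists below were each described by counts and by the median difference of the tested members, beside a median of 0.08 and called shares of 30.1% higher and 22% lower over all tested genes. The filter over all 12 libraries also admits genes through a high level in Prkcz-/- sgScr alone. Such members are in the counts and medians though near the floor in both groups compared.

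**Figure D2:**
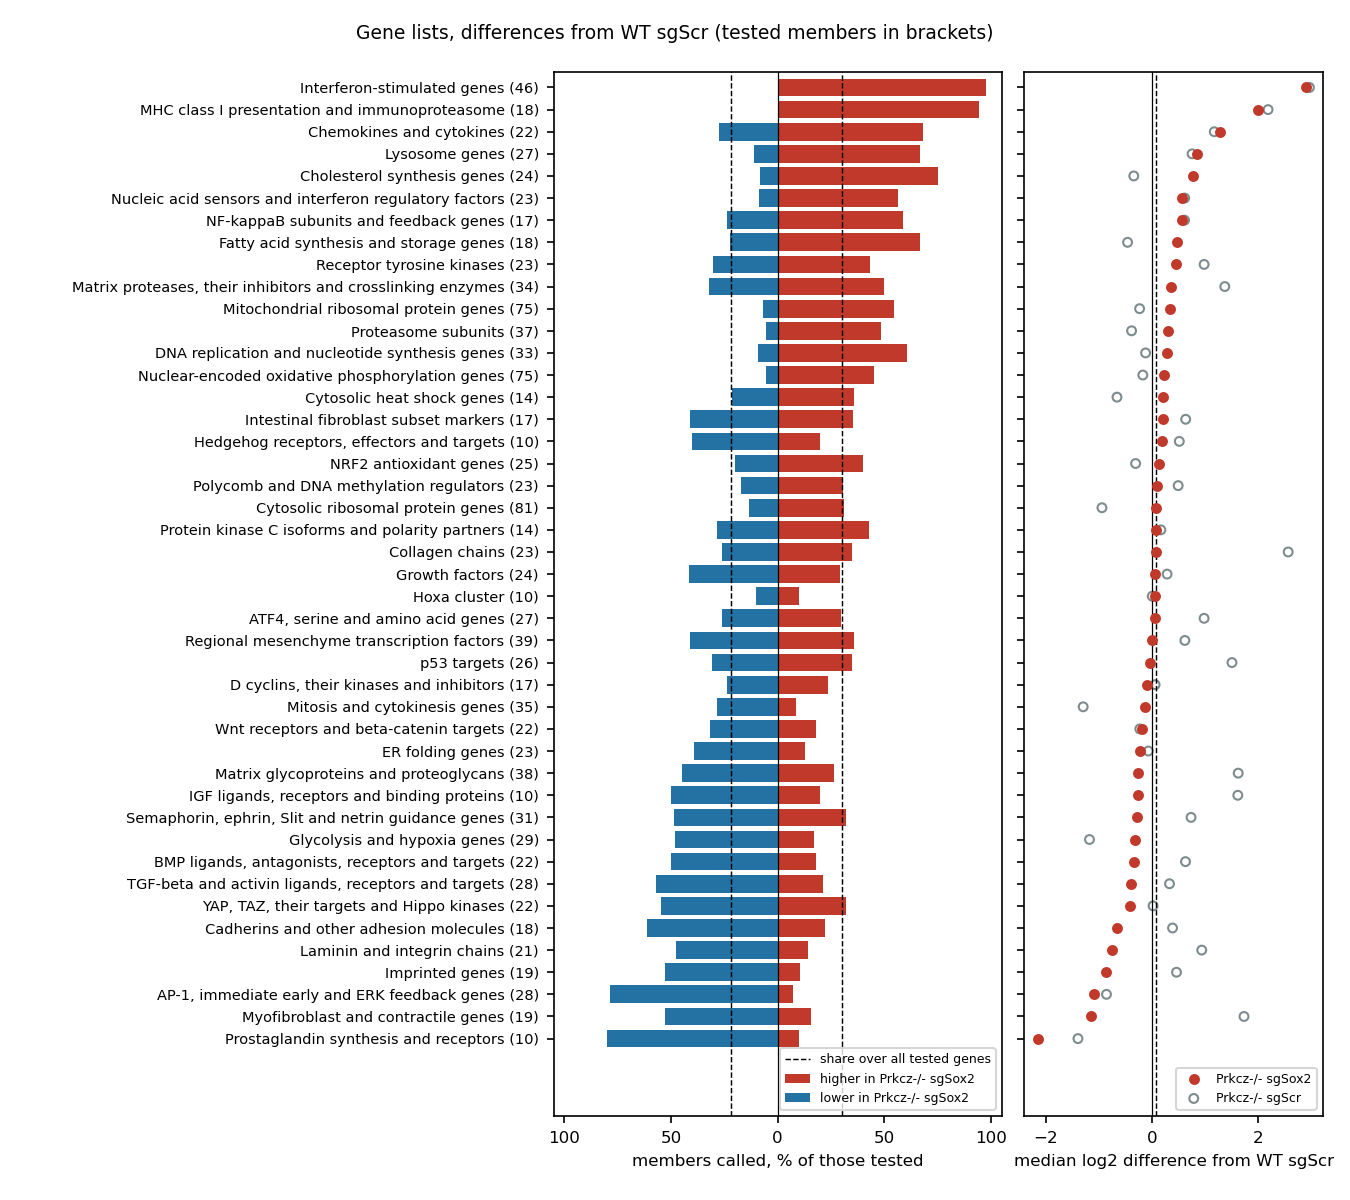
Left, the share of tested members of 44 gene lists called higher (red, right) and lower (blue, left) in the Sox2 guide against WT, with dashed lines at the shares over all tested genes (30.1% and 22%). Right, the median log2 difference from WT of each list in the Sox2 guide (filled) and in Prkcz-/- sgScr (open), with interferon-stimulated genes at the top (2.91 and 2.96) and prostaglandin genes at the bottom (-2.16 and -1.40).

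Interferon-stimulated genes had the highest median of the 44 lists with at least 10 tested members. All 46 were tested, 45 were called higher and none lower, the groups did not overlap for any of the 46, and the median difference was 2.91, with 2.96 for Prkcz-/- sgScr. The summed level was 91077 to 108175 normalised reads in the Sox2-guide libraries and 12895 to 15207 in the WT libraries. Of 46 members 33 had a promoter window in the RefSeq table, from 250 bases before to 50 after the start of the gene. The core of the interferon-stimulated response element, written here as GAAA, 2 bases of any kind and GAAA on either strand, was in 20 of the 33 (60.6%), in 3.12% of 9347 promoters of tested genes and in 3.49% of all 27025 promoters. The 5 windows below show where these letters lie upstream of members described next. They are from RefSeq (GRCm38.p6), run 5′ to 3′ on the strand of the gene, and have the match in capitals; on the other strand it reads TTTC, 2 bases, TTTC.
Oas3 (chr5:120777675-120777774, minus strand): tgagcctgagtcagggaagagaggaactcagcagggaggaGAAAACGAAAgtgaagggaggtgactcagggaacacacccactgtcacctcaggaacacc
Isg15 (chr4:156200837-156200936, minus strand): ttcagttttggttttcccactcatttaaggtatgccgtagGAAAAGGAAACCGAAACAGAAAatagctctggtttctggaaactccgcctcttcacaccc
Ifit1 (chr19:34640745-34640844, plus strand): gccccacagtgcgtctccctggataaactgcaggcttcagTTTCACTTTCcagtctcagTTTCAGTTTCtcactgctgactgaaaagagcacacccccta
Bst2 (chr8:71537543-71537642, minus strand): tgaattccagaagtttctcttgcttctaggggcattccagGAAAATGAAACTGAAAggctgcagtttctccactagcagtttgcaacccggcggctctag
Rsad2 (chr12:26456513-26456612, minus strand): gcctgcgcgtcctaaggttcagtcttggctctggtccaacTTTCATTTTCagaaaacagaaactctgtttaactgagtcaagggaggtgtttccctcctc
In Isg15 and Bst2 overlapping matches run together, and Ifit1 holds a pair. A match is a description of the letters and no evidence of binding.

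The oligoadenylate synthetases, which make the messenger that activates RNase L, included the largest differences of the list. Oas3 had 615, 432, 435 and 484 normalised reads in the Sox2-guide libraries, 10.2, 5.83, 9.39 and 16.2 in the Prkcz-/- sgScr libraries and 9.74, 10.8, 11.97 and 3.29 in the WT libraries (log2 difference from WT 5.73 ± 0.36 SE, adjusted p = 1.6e-09). Every Sox2-guide library was far above all 8 others. Oas2 averaged 213 ± 61.4 in the Sox2 guide, 45.4 in Prkcz-/- sgScr and 8.86 ± 3.90 in WT. Oas1a averaged 123 ± 35.2, 51.2 and 4.02 ± 2.96, and Oasl2 2765 ± 396, 2279 and 181 ± 60.8, in the same order. These genes lie on chromosome 5, with 7 members of the list, and Oas1a, Oas1b and Oas1g are near-identical copies. Oasl1, also there, was the only member not called, at 292, 223, 202 and 217 in the Sox2-guide libraries, a mean of 19.6 in Prkcz-/- sgScr and 156, 137, 177 and 164 in WT (log2 difference from WT 0.55, adjusted p = 0.062).

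The effectors, sensors and signalling genes of the response were higher in the Sox2 guide as well. Zbp1, a sensor of Z-form nucleic acid, had 857, 616, 596 and 558 against 12.99, 28.9, 8.98 and 6.57 in WT. Isg15, a ubiquitin-like modifier, had 7973, 7324, 5550.0 and 5192 against 429, 422, 533 and 440.3 (log2 difference 3.82 ± 0.14 SE). Ifit1, which binds viral RNA caps, had 7021, 5484, 5370.1 and 5399 against 961, 1065, 1116 and 1189. No Sox2-guide library came within 4-fold of a WT library in any of these 3 genes. Ifi44 averaged 4845 ± 341 against 219 ± 47.3, and Ifit3, with its near copy Ifit3b, 3713 ± 582 against 171 ± 40.2. Bst2 or tetherin, which holds budding virus at the membrane, averaged 5214 ± 370.5 against 536 ± 84.0, and Ifitm3, which blocks virus entry, 15594 ± 2761 against 2399.8 ± 114. The signal transducer Stat2 averaged 1104 ± 69.0 against 227 ± 15.7, and Irf9, its partner, 1727 ± 150.4 against 537 ± 49.3. Irf7, the factor that amplifies interferon production, averaged 1459.6 ± 323 against 98.1 ± 32.99, and Usp18, which dampens the receptor, 1028 ± 219 against 87.2 ± 22.2.

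Levels in the Prkcz-/- sgScr libraries were not uniformly like those of the Sox2 guide. Rsad2 or viperin had 5687, 6131, 6982 and 7469 in the Sox2-guide libraries, 1968, 2003, 1818 and 1929 in the Prkcz-/- sgScr libraries and 718, 596, 637 and 689.9 in the WT libraries. Its neighbour Cmpk2, a mitochondrial nucleotide kinase, averaged 1137 ± 166, 200.1 and 107 ± 17.9. Mx1, of a family of interferon-induced GTPases, had 167, 127, 176.1 and 158, a mean of 777 in Prkcz-/- sgScr and 32.5, 32.5, 23.9 and 46.0. It was thus above WT in the Sox2 guide but below the Prkcz-/- sgScr level. Mx2 averaged 318 ± 47.8, 530.4 and 44.5 ± 13.4 in the same order. Irf7, Ifit1, Ifit3 and Usp18 had Prkcz-/- sgScr means of 1479, 6019.5, 3402 and 1156.

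**Figure D3:**
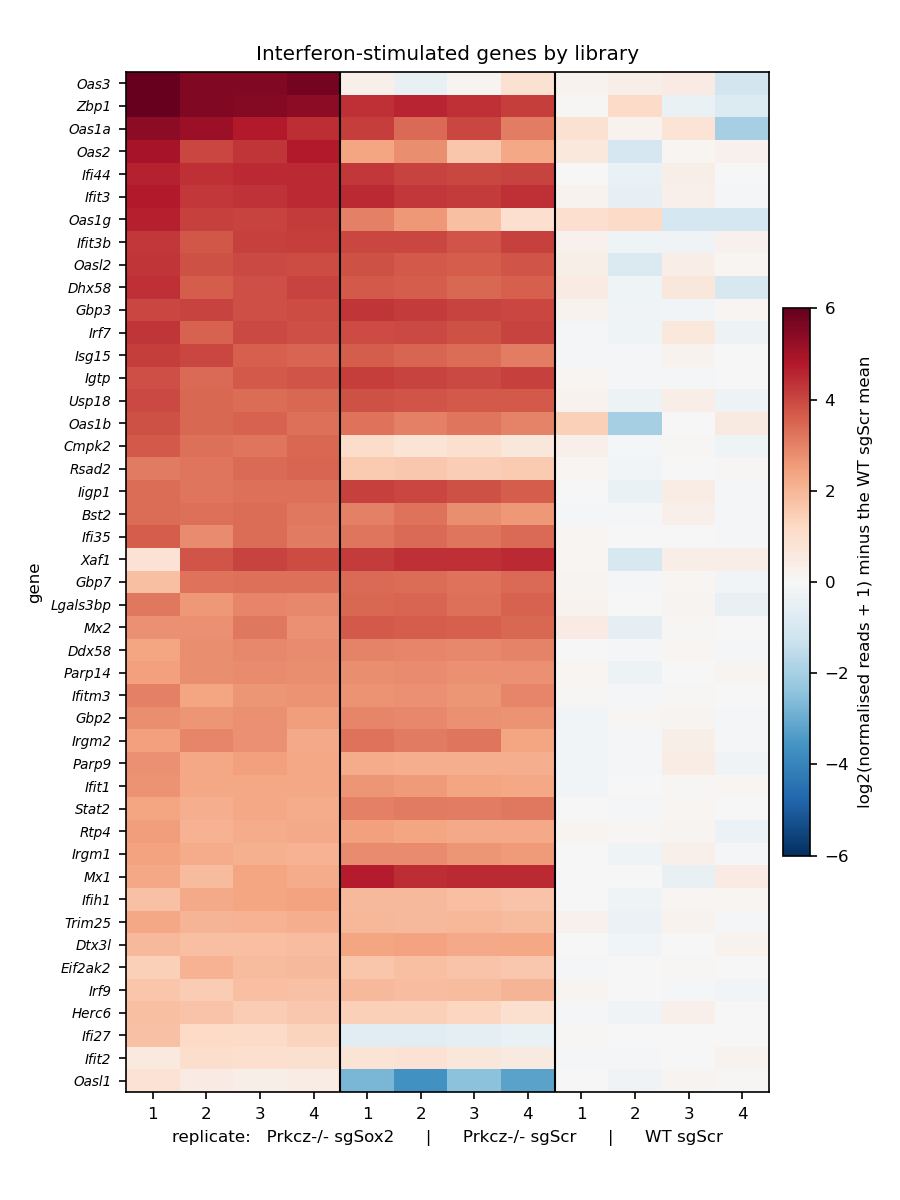
Rows are 45 of the 46 tested interferon-stimulated genes, ordered by their difference between Sox2 guide and WT, and columns the 12 libraries. Colour is log2(normalised reads + 1) minus the WT mean of the gene; the Sox2-guide libraries (left) are red in nearly every row, Oas3 is red there and near white in Prkcz-/- sgScr (middle), and Xaf1 is pale in Sox2-guide replicate 1.

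Antigen presentation by MHC class I followed the same direction. Of 18 tested members of that list 17 were called higher and none lower, with a median of 1.99 (2.18 in Prkcz-/- sgScr). B2m, the invariant light chain, had 35229, 29790.1, 28439.7 and 28072 in the Sox2-guide libraries against 7754, 7829, 8596 and 8545 in the WT libraries. H2-K1, a heavy chain, had 5877, 4048, 3549 and 4309.8 against 1143, 1148, 1137 and 1117. The lowest Sox2-guide library was more than 3-fold above the highest WT library in both. Tap1, a subunit of the peptide transporter that overlaps Psmb9 on the other strand, averaged 840.2 ± 129.7 against 89.9 ± 21.3, Nlrc5, the activator of class I genes, 191 ± 48.5 against 39.9 ± 9.25, and Tapbp 4419 ± 717 against 701 ± 27.8. H2-Q7, of a family of near-identical genes, averaged 165 ± 47.7 against 3.22 ± 2.46. The immunoproteasome subunits Psmb8, Psmb9 and Psmb10 averaged 247 ± 90.7, 52.4 ± 16.2 and 1055 ± 287 against 40.2 ± 5.39, 12.3 ± 5.15 and 222 ± 13.4. In Prkcz-/- sgScr they averaged 722, 128 and 347, so Psmb10 stood higher in the Sox2 guide and the other 2 lower. Of the 37 proteasome genes tested, which include these 3, 18 were higher and 2 lower (6 lower without Sox2-guide replicate 1), with a median of 0.29.

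Of 23 sensors, receptors and interferon regulatory factors 13 were higher and 2 lower (0 lower without Sox2-guide replicate 4 or WT replicate 1), with a median of 0.56. Zbp1, Irf7 and Irf9, among the higher, were also counted with the interferon-stimulated genes. Beside Zbp1 and Irf7, Ifi204, a DNA sensor, averaged 1591 ± 82.4 against 194 ± 26.1, Irf1 2182 ± 369 against 719.6 ± 10.1, and Adar, which edits double-stranded RNA, 709 ± 155 against 215 ± 25.8. Ifnar1, a chain of the type I interferon receptor, averaged 73.7 ± 19.7 against 105.2 ± 9.39, and Socs1, a feedback inhibitor, 63.2 ± 37.4 against 111 ± 4.71. Both were called lower, but neither was called from the 8 libraries alone. The Ifnar1 call was also lost with the replicate block, with no filter on low values, and without Sox2-guide replicate 1 or 4 or WT replicate 1, 3 or 4, and the Socs1 call without Sox2-guide replicate 3 or 4 or WT replicate 1 or 2. Irf3, Ifnar2 and Myd88 were not called.

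Chemokines and cytokines were mostly higher. Of 22 tested members 15 were called higher and 6 lower, with a median of 1.27 (1.15 with Cxcl5, which has no reads in WT, at its bound) and 1.17 in Prkcz-/- sgScr. Ccl2, which attracts monocytes, had 2005, 2081, 1244 and 993 in the Sox2-guide libraries, 695, 621, 629 and 172 in the Prkcz-/- sgScr libraries and 123, 123, 195 and 187 in the WT libraries. Ccl7, its neighbour and relative, had 890.1, 877, 633 and 504 against 29.2, 32.5, 35.9 and 32.9. All Sox2-guide libraries were at least 5-fold above every WT library in Ccl2. Ccl5 averaged 4347 ± 755 against 1304 ± 66.3, Cxcl10, an interferon-induced attractant of T cells, 3118 ± 571 against 778 ± 64.7, and Cxcl12, which retains leukocytes and stem cells in stroma, 10214 ± 1163 against 4626 ± 123. Ccl9 averaged 94.1 ± 28.1 against 0.821 ± 1.64, the WT value resting on 1 read, 116-fold higher by pooled reads, with an exact 95% counting interval of 20.6 to 4622. Tnfrsf11b, the decoy receptor osteoprotegerin, averaged 76.1 ± 25.4 against 4.83 ± 4.09. The members called lower included Il33, an alarmin, at 143 ± 25.9, 0.508 in Prkcz-/- sgScr and 400.2 ± 56.0 in WT, and Il11, at 3.11 ± 3.61 against 39.1 ± 5.29. Cx3cl1, Il1rl1 and Il1r1 were lower too, Il1rl1, the IL-33 receptor, at 951 ± 55.1 against 2165 ± 99.3.

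Among NF-kappaB genes 10 of 17 were higher and 4 lower, with a median of 0.56. The subunits Rela and Nfkb2 were higher and Nfkb1 lower, and of the inhibitors Nfkbie averaged 94.7 ± 13.2 against 14.7 ± 5.73 and Nfkbia 3563 ± 179 against 1654 ± 126. Nfkbiz averaged 167 ± 18.5 against 384 ± 23.8, lower in the Sox2 guide. Complement was represented by 7 tested genes, of which the proteases C1ra and C1s1 and the C1q-related C1qtnf1 were higher, the proteases at 319.9 ± 57.5 and 101 ± 13.6 against 51.8 ± 12.4 and 20.2 ± 4.23, and the receptor C3ar1 lower.

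Prostaglandin genes had the lowest median of the same 44 lists. Of 10 tested members 8 were called lower and 1 higher, with a median of -2.16 (-1.40 in Prkcz-/- sgScr). Ptgs2, the inducible cyclooxygenase COX-2, had 419, 521, 326 and 249 in the Sox2-guide libraries against 2961, 3604, 4073 and 3719 in the WT libraries. Ptgs1, the constitutive COX-1, had 98.1, 191, 191 and 225 against 2257, 2134, 2281 and 2389. Every WT library was more than 5-fold above every Sox2-guide library in both genes. The terminal synthases Ptgis and Ptges had no read in any Sox2-guide library, Ptges with 87.7, 134, 108 and 118 in WT, at least 61.2-fold lower. Pla2g4a, which frees arachidonic acid, averaged 786 ± 65.9 against 1583 ± 89.6, and the receptor Ptger4 18.96 ± 8.26 against 87.3 ± 18.7. The receptor Ptgfr had 2 reads against 10, 6.71-fold lower by pooled reads, with an exact 95% counting interval of 1.43 to 63.0. Ptges2, a further synthase, was the 1 member higher, at 189.8 ± 52.5 against 93.5 ± 13.1. The Prkcz-/- sgScr means were 211 for Ptgs2, 203 for Ptgs1, 1.80 for Ptgis and 20.1 for Ptges.

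Immediate early genes and feedback inhibitors of ERK signalling were mostly lower. Of 28 tested members 22 were called lower and 2 higher, with a median of -1.09 (-0.86 in Prkcz-/- sgScr). Dusp6, the cytosolic ERK phosphatase, had 213, 198, 127 and 123 in the Sox2-guide libraries against 1448, 1654, 1610.2 and 1636 in the WT libraries. Spry2, a Sprouty inhibitor of receptor tyrosine kinase signalling, had 286, 340.5, 296 and 301 against 1509.8, 1437, 1493 and 1689. Every WT library was more than 4-fold above every Sox2-guide library in both. Dusp4 and Dusp5, nuclear ERK phosphatases, averaged 146 ± 29.6 and 207 ± 81.6 against 533 ± 68.5 and 632 ± 54.6, and the ETS factors Etv4 and Etv5 252 ± 21.5 and 27.2 ± 6.71 against 423 ± 66.3 and 172.6 ± 10.03. The AP-1 subunits Fosl1 and Fos averaged 359 ± 109 and 7.97 ± 3.20 against 704 ± 36.4 and 19.3 ± 8.92, Myc 75.7 ± 30.1 against 168 ± 55.7, and the exceptions Ier3 and Jund, both higher, 1018 ± 90.2 and 1493 ± 363 against 629.6 ± 64.9 and 768 ± 47.0. In the Prkcz-/- sgScr libraries Dusp4, Dusp5, Etv4 and Fosl1 averaged 20.98, 47.6, 23.2 and 63.9, farther below WT than in the Sox2 guide.

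Growth factors went both ways, with 7 of 24 higher and 10 lower. Beside Hgf, Fgf2, basic fibroblast growth factor, averaged 1.65 ± 1.13 against 96.4 ± 19.8, 52.3-fold lower by pooled reads, with an exact 95% counting interval of 17.5 to 257. The EGF family ligand Areg, amphiregulin, averaged 3.70 ± 2.12 against 75.5 ± 24.3, and Ereg, epiregulin, 35.1 ± 7.25 against 209.5 ± 22.5. Gdnf, a factor for enteric neurons, was higher at 155 ± 30.7 against 46.3 ± 4.83, and so was Igf1 at 198 ± 15.5, 1013 in Prkcz-/- sgScr and 113 ± 12.4 in WT. Fgf7 and Fgf10, which act on epithelium, were not called, at 399 ± 31.7 and 171 ± 28.5 against 340.0 ± 16.6 and 172.7 ± 23.4. Of receptor tyrosine kinases 10 of 23 were higher and 7 lower. Kdr and Flt1, receptors for VEGF that also mark endothelium, averaged 96.9 ± 12.1 and 284 ± 31.7 against 11.6 ± 6.89 and 57.2 ± 19.8, while the endothelial marker Pecam1 stayed near 0 as given above. In Prkcz-/- sgScr Kdr averaged 14.8, near WT, and Flt1 228, near the Sox2 guide. Egfr averaged 155 ± 29.3 against 367 ± 36.5, and Igf1r 827 ± 39.3 against 1706 ± 65.2, both lower.

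Several fibroblast markers were lower in the Sox2-guide libraries while type I collagen was higher. Of the 11 tested general markers 4 were higher and 6 lower. Dcn, the proteoglycan decorin, had 15.4, 40.1, 26.2 and 44.5, a mean of 55.3 in Prkcz-/- sgScr and 1325, 1336, 1514 and 1321 in the WT libraries. Pdgfra, a receptor that marks intestinal stroma, had 42.3, 35.6, 48.7 and 37.05, 1448 in Prkcz-/- sgScr and 279, 209, 272 and 237 in WT. Every WT library was more than 4-fold above every Sox2-guide library in both genes, while Pdgfra was far above WT in Prkcz-/- sgScr. Col1a1, a chain of type I collagen, was higher in the Sox2 guide at 11494 ± 1789.6, 57381 in Prkcz-/- sgScr and 5829 ± 297 in WT, and Sparc at 32609 ± 4429.7, 80947 in Prkcz-/- sgScr and 16817 ± 905 in WT.

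Myofibroblast and contractile genes had a median of -1.14, with 3 of 19 higher and 10 lower, while their median was 1.73 in Prkcz-/- sgScr. The lower members include Lmod1, at 2 reads in the Sox2 guide against 10 in WT, with a mean of 654 in Prkcz-/- sgScr. Tagln, an actin-binding protein of smooth muscle, had 38.5, 64.5, 119.9 and 119 in the Sox2-guide libraries, a mean of 1966 in Prkcz-/- sgScr and 601, 596, 599 and 572 in the WT libraries. Myl9, a myosin light chain, had 104, 51.2, 33.7 and 79.03, a mean of 5018 and 455, 376, 398 and 388 in the same order. Acta2, smooth muscle actin, averaged 1340.0 ± 329, 25553 and 1609 ± 61.9, and its difference from WT did not pass the threshold (log2 difference -0.29 ± 0.12 SE, adjusted p = 0.056). It did pass under TMM, quantile, DESeq2 and edgeR scaling, with array weights, when rescaled without mitochondrial genes, with pseudocount 10 and without Sox2-guide replicate 1, always as lower. Cnn1 or calponin averaged 6.76 ± 1.54 against 46.6 ± 17.8, and Ccn2, a matricellular protein, 119 ± 43.7 against 285 ± 113. Cnn1 averaged 52.3 in Prkcz-/- sgScr, near the WT level. Postn, the matrix protein periostin, was called higher at 434 ± 45.3, with 14452 in Prkcz-/- sgScr, against 227 ± 45.7 in WT.

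Collagen chains had a median of 0.07, with 8 of 23 higher and 6 lower, against 2.56 in Prkcz-/- sgScr. Col5a1 averaged 1395 ± 232 in the Sox2 guide, 4432 in Prkcz-/- sgScr and 484 ± 32.6 in WT. Col12a1, a fibril-associated chain, averaged 49.0 ± 17.1, 2038 and 22.6 ± 10.6, and Col6a1, not called, 413 ± 66.8, 2643 and 448 ± 48.0. The basement membrane chain Col4a1 was lower, at 2025 ± 289, 3123 and 3639 ± 87.7. Matrix glycoproteins and proteoglycans had 10 of 38 members higher and 17 lower, with a median of -0.26. Beside Dcn and Spock3, Mfap5, a microfibril protein, had 1 read against 166 ± 18.1, 272-fold lower by pooled reads, with an exact 95% counting interval of 48.3 to 10809. Dpt, dermatopontin, averaged 62.2 ± 12.3 against 1153 ± 40.5, and Ogn 31.9 ± 7.28 against 171 ± 30.8. Thbs2, thrombospondin 2, was higher at 632 ± 80.2 against 36.5 ± 8.85, and Efemp1 at 308 ± 61.5 against 117 ± 17.8. Spp1 or osteopontin, a secreted phosphoprotein named here after its values were seen, had 2013, 1687, 1855 and 1857, a mean of 374 in Prkcz-/- sgScr and 11273, 11902, 12373 and 13329 in WT.

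Matrix proteases, their inhibitors and crosslinking enzymes had 17 of 34 members higher and 11 lower. Adamts5, which cleaves aggrecan and versican, had 2082, 2259, 2072 and 1907 against 198, 217, 233 and 194, and Mmp2, gelatinase A, had 896, 612, 671 and 654 against 87.7, 65.0, 83.8 and 85.4. Both were higher in every Sox2-guide library. Mmp2 averaged 13.3 in Prkcz-/- sgScr, below WT. Mmp3 and Mmp10, neighbouring stromelysin genes, were lower at 9.24 ± 4.11 and 5.36 ± 2.42 against 72.9 ± 5.25 and 48.3 ± 5.52, and Adam19 averaged 102 ± 19.7 against 698 ± 16.9. Of 21 laminin and integrin chains 3 were higher and 10 lower, Itga7 and Lama2, a laminin receptor chain and a laminin chain of muscle and mesenchyme, at 16.6 ± 13.1 and 4.59 ± 2.22 against 392.2 ± 36.8 and 95.6 ± 23.3. Adhesion molecules had 4 of 18 higher and 11 lower. Alcam averaged 23.02 ± 6.04 against 2848 ± 143, and Cd44, the hyaluronan receptor, 6129.8 ± 952 against 14877 ± 867.

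**Figure D4:**
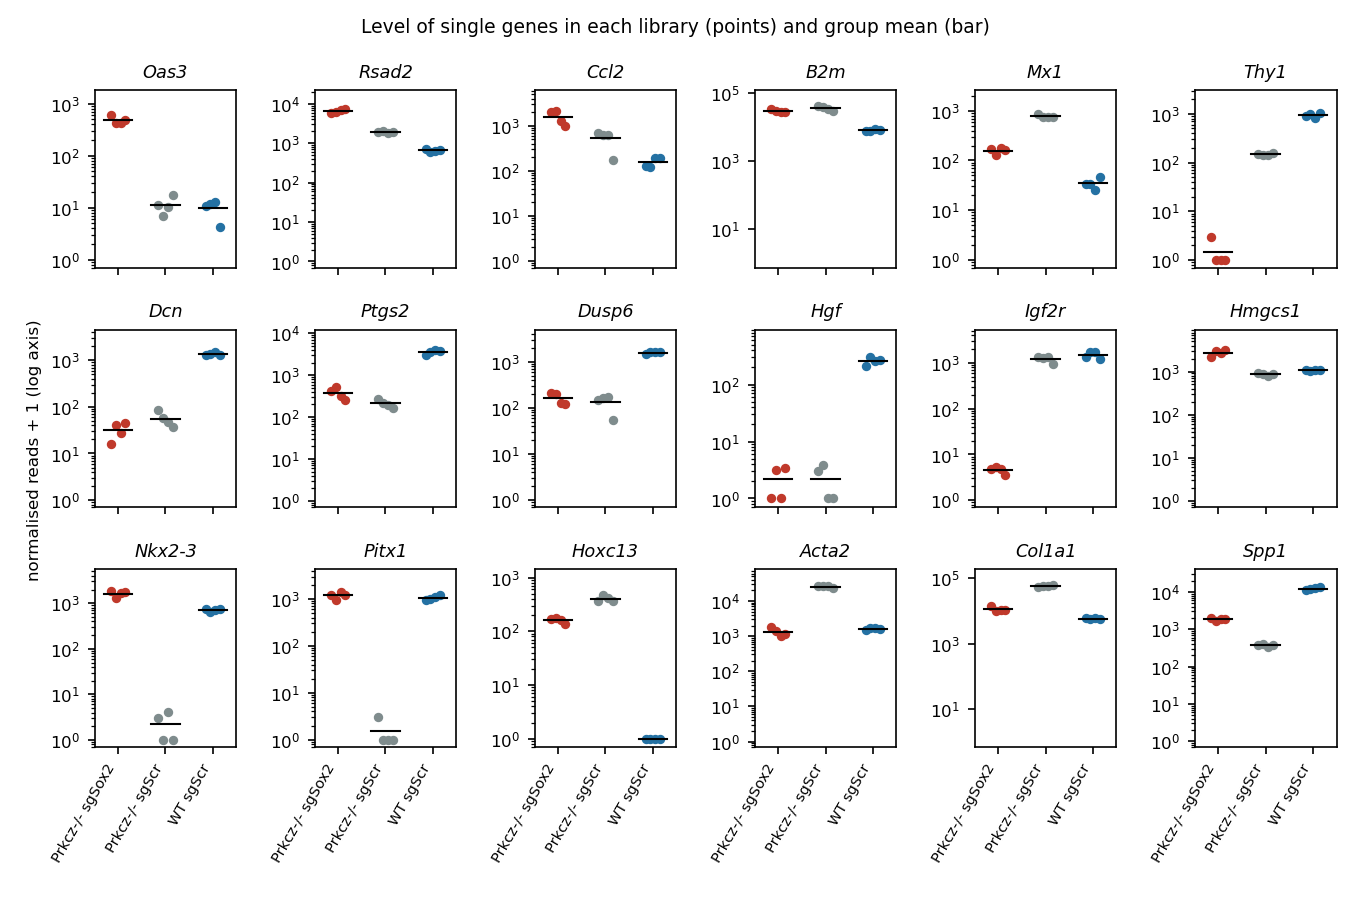
Levels of 18 genes in each library (points; normalised reads + 1, log axis) and the group mean (bar), for the Sox2 guide, Prkcz-/- sgScr and WT from left to right. Oas3 is high only in the Sox2 guide among the 3 groups, Dusp6, Dcn and Hgf are low in both Prkcz-/- groups, and Nkx2-3 and Pitx1 are near 0 in Prkcz-/- sgScr and at or above the WT level in the Sox2 guide.

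Signals that pattern the crypt were mixed. TGF-beta and activin genes had 6 of 28 higher and 16 lower, with a median of -0.41. Fst, the activin antagonist follistatin, averaged 23.6 ± 5.88 against 339 ± 57.3, Inhba, an activin subunit, 103 ± 9.56 against 488 ± 30.6, and the receptor Tgfbr2 553 ± 116 against 1375 ± 129.7. Tgfbi, a matrix protein induced by TGF-beta, was higher at 741 ± 106 against 56.7 ± 19.2, as was the coreceptor Eng, which overlaps another gene, at 386 ± 77.2 against 59.1 ± 14.6. BMP genes had 4 of 22 higher and 11 lower. The ligand Bmp2 averaged 42.5 ± 14.1 against 391 ± 13.3 and Bmp4 564 ± 53.6 against 267 ± 20.6, lower and higher, and the targets Id1, Id2 and Id3 were all lower. Id1 averaged 145 ± 17.2 against 425 ± 58.5. Grem1, a BMP antagonist of the crypt base, averaged 7105 ± 1164 against 4803 ± 239.8, higher in the Sox2 guide.

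For Wnt signalling, 3 of 7 tested ligands and R-spondins were lower and 1 higher. Wnt7b had 24.99, 22.3, 22.5 and 24.7 in the Sox2-guide libraries, a mean of 1.29 in Prkcz-/- sgScr and 253, 246, 302 and 306 in the WT libraries. Rspo2, which sustains Wnt signalling in stem cells, had 53.8, 40.1, 33.7 and 37.05, 3127 in Prkcz-/- sgScr and 6.49, 3.61, 0 and 9.86 in WT. Rspo3, its relative, had 1 read against 46.0 ± 19.6, 75.1-fold lower by pooled reads, with an exact 95% counting interval of 12.9 to 3019.6. Of the secreted antagonists Dkk2 and Dkk3 were lower, Dkk2 at 31.0 ± 7.95 against 511 ± 78.8 and Dkk3 at 3.604 ± 3.17, with 2969 in Prkcz-/- sgScr, against 166 ± 40.01 in WT. Of receptors and targets 4 of 22 were higher and 7 lower. Axin2, a feedback target of beta-catenin, averaged 3.47 ± 3.25 against 27.8 ± 5.69, and the nuclear partner Lef1 36.0 ± 1.24 against 7.63 ± 4.84.

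Transcription factors that mark position along the body and gut differed in both directions. In the Hoxa cluster 1 of 10 tested genes was higher and 1 lower. In Hoxb 6 of 9 were higher and 2 lower, in Hoxc 3 of 8 higher and 1 lower, and in Hoxd 1 of 4 was lower. The Hoxc genes summed to 190 to 225 in the Sox2 guide, 6356 to 6913 in Prkcz-/- sgScr and 19.7 to 38.9 in WT. Most of the Sox2-guide sum was Hoxc13, so the other Hoxc counts rest on low levels in both groups compared. Hoxb13, a factor of the hindgut and tail end, had 185, 134, 131 and 170.4, a mean of 29.5 in Prkcz-/- sgScr and 12.99, 14.4, 14.96 and 3.29 in WT. Hoxd13, of the distal gut and limb, had 57.7, 80.1, 52.5 and 54.3, 1.02 in Prkcz-/- sgScr and 565, 632, 619.5 and 516 in WT. Of the other group 13 genes, Hoxa13 was higher at 30.8, 24.5, 14.99 and 34.6 against 3.25, 0, 8.98 and 6.57, and Hoxc13 at 167, 178, 161 and 133 against 0 reads, at least 65.2-fold higher. Of the 4 genes of that group 3 were thus higher and Hoxd13 lower. Hoxb7 averaged 505 ± 26.8 against 129 ± 9.27, and Hoxa11 423 ± 38.8 against 682 ± 72.1. Hoxc6, which overlaps neighbours, averaged 16.04 ± 5.25 in the Sox2 guide, 2403 in Prkcz-/- sgScr and 25.01 ± 7.38 in WT. It was called lower, a call lost under DESeq2 and edgeR, with the Sox2-guide level on the far side of WT from Prkcz-/- sgScr.

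Of 39 other regional factors of mesenchyme 14 were higher and 16 lower. Nkx2-3, a factor of gut mesenchyme, had 1838, 1282, 1638 and 1729 in the Sox2-guide libraries, 2.03, 0, 3.13 and 0 in the Prkcz-/- sgScr libraries and 747, 636, 715 and 752 in the WT libraries. Pitx1, a hindlimb and posterior factor, had 1238, 970.3, 1417 and 1225, 2.03, 0, 0 and 0 and 948, 986, 1107 and 1186 in the same order and was not called (log2 difference 0.19 ± 0.29 SE, adjusted p = 0.61). In both genes the Prkcz-/- sgScr libraries held at most 1 read each, while the Sox2-guide libraries were of the order of WT or higher. Prrx1, a factor of fibroblast identity, averaged 614 ± 107 in the Sox2 guide, 10709.8 in Prkcz-/- sgScr and 2249 ± 97.5 in WT, and Gata2 122 ± 16.5, 175 and 488 ± 44.8. En1 was higher in the Sox2 guide at 606 ± 61.3, with 1897 in Prkcz-/- sgScr, against 117 ± 22.2 in WT, and Msx1 averaged 132 ± 29.0, 91.2 and 31.7 ± 5.77. Sox factors other than Sox2 included Sox11 and Sox12, higher at 999 ± 84.7 and 210.4 ± 35.8 against 281 ± 37.3 and 53.1 ± 15.5, and Sox9, lower at 729 ± 51.03 against 1045 ± 119.

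Imprinted genes, expressed from 1 parental copy, had 2 of 19 higher and 10 lower, with a median of -0.86 (0.46 in Prkcz-/- sgScr). Beside Igf2r, the long RNA Meg3 averaged 1.90 ± 2.19 against 258 ± 43.1, 141-fold lower by pooled reads, with an exact 95% counting interval of 47.8 to 687, and its neighbour Dlk1 248 ± 31.7 against 876 ± 53.2. Snrpn averaged 0.481 ± 0.961 against 102 ± 18.2, 168-fold lower by pooled reads, with an exact 95% counting interval of 29.6 to 6676. Mest averaged 5.26 ± 2.47 in the Sox2 guide, 384 in Prkcz-/- sgScr and 61.8 ± 17.9 in WT. Among Polycomb and DNA methylation regulators 7 of 23 were higher and 4 lower, and 5 and 6 under DESeq2. Cbx7, a chromatin-reading subunit, had 135, 111, 71.2 and 64.2 in the Sox2-guide libraries, a mean of 106 in Prkcz-/- sgScr and no read in WT, at least 38.9-fold higher in the Sox2 guide than in WT. It overlaps Apobec3 on the other strand, so reads may be shared. Dnmt3a, a DNA methyltransferase, averaged 330.2 ± 60.2 against 132 ± 19.4. Markers of intestinal fibroblast subsets had 6 of 17 higher and 7 lower, and 4 higher under DESeq2, edgeR and TMM scaling. Ly6a and Ly6c1, with near-identical relatives, were higher at 6976 ± 1050.0 and 1920.0 ± 331 in the Sox2 guide, with 114 and 10.8 in Prkcz-/- sgScr, against 890.2 ± 70.9 and 234 ± 26.3 in WT. Cd34, a surface sialomucin, was lower at 2669.6 ± 275, with 767 in Prkcz-/- sgScr and 4599 ± 208 in WT. Keratins with genes of the cornified envelope and the mesothelium had 4 of 9 higher and 4 lower. Lor, the envelope protein loricrin, was higher at 151 ± 21.3 against 5.64 ± 5.59, and so was Sprr1a, another envelope protein, at 3177 ± 479, 6.97 in Prkcz-/- sgScr and 983 ± 93.7 in WT. Msln and Krt19, given above, were among the lower members.

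Transcripts of cholesterol synthesis genes and of fatty acid synthesis and storage genes were mostly higher in the Sox2 guide. Of 24 cholesterol synthesis genes 18 were called higher and 2 lower, with a median of 0.77, while their median was -0.35 in Prkcz-/- sgScr. Hmgcs1, which makes the precursor of mevalonate, had 2226, 2944, 2728 and 3122 in the Sox2-guide libraries, a mean of 863 in Prkcz-/- sgScr and 1081, 1004, 1065 and 1081 in the WT libraries. Sqle, squalene epoxidase, had 2759, 2237, 2159 and 2396, a mean of 825 and 1016, 903, 909.8 and 1025 in the same order. Every Sox2-guide library was more than 2-fold above every WT library in both genes. Nsdhl, a late enzyme of the pathway, had 1328, 966, 933 and 1077 against 305, 274, 329 and 286. Fdft1, squalene synthase, averaged 249 ± 49.3 against 89.0 ± 10.7, and Srebf2, the regulator of these genes, 1835 ± 158 against 1009.9 ± 116. Of 18 fatty acid synthesis and storage genes 12 were higher and 4 lower. Lpl, lipoprotein lipase, averaged 179 ± 21.5 against 9.67 ± 8.19, Scd1, a desaturase, 2497 ± 129.9 against 1399.7 ± 139, and Fads2 76.5 ± 24.6 against 26.8 ± 3.65.

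Lysosome genes had 18 of 27 members higher and 3 lower, with a median of 0.85 (0.75 in Prkcz-/- sgScr). Grn, progranulin, averaged 4031 ± 699.5 against 953 ± 39.1, and Npc2, a cholesterol carrier, 6968 ± 848 against 2036 ± 121. Ctsk, cathepsin K, was lower at 5.12 ± 2.36 against 156 ± 24.8. Of 75 mitochondrial ribosomal protein genes 41 were higher and 5 lower, with a median of 0.34, and of 75 nuclear genes of oxidative phosphorylation 34 were higher and 4 lower, with a median of 0.23. The oxidative phosphorylation list had 9 lower without Sox2-guide replicate 1, the library with the low mitochondrial share. Transcripts encoded in mitochondria had 1 of 7 higher and 2 lower. Cytosolic ribosomal protein genes, whose reads pseudogenes may share, had 25 of 81 higher and 11 lower, but 22 higher and 25 lower without Sox2-guide replicate 1, and 16 and 16 under DESeq2. Their median was 0.08, against -0.95 in Prkcz-/- sgScr. Glycolysis and hypoxia genes had 5 of 29 higher and 14 lower. Slc16a3, a lactate exporter, averaged 2.41 ± 3.49 against 129.7 ± 22.9, and Adm, adrenomedullin, 7.66 ± 2.79 in the Sox2 guide, 852 in Prkcz-/- sgScr and 109.7 ± 10.5 in WT.

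The cell cycle lists divided. DNA replication and nucleotide synthesis genes had 20 of 33 higher and 3 lower, with a median of 0.29. Pcna, the sliding clamp, averaged 2476 ± 319 against 1528 ± 48.6, and Mcm4, of the helicase, was lower at 1419 ± 409.6 against 2769 ± 199. Mitosis genes had 3 of 35 higher and 10 lower, with a median of -0.13 (-1.30 in Prkcz-/- sgScr), and 22 were not called. Without Sox2-guide replicate 1 or 2, 5 were higher. Anln, a scaffold of the cleavage furrow, averaged 1665 ± 309.5 in the Sox2 guide, 684 in Prkcz-/- sgScr and 3851 ± 149 in WT. D cyclins, their kinases and inhibitors had 4 of 17 higher and 4 lower, but 7 lower without Sox2-guide replicate 1, and 3 higher and 7 lower under DESeq2, edgeR and TMM scaling. E2f1, a factor that opens S phase, was higher at 611 ± 73.0 in the Sox2 guide, 522 in Prkcz-/- sgScr and 275 ± 33.01 in WT. Ccnd1, cyclin D1, averaged 2483 ± 239 against 6171 ± 282 and Cdkn1a, the inhibitor p21, 559.6 ± 195 against 981 ± 72.2, both lower. The p53 gene and its targets had 9 of 26 higher and 8 lower, a balance that turned under DESeq2 (7 and 10) and TMM scaling (8 and 9).

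Stress response lists were mixed. ATF4 with genes of serine synthesis and the amino acid response had 8 of 27 higher and 7 lower, and more lower than higher under DESeq2, edgeR, TMM and quantile scaling. Chac1, which degrades glutathione, averaged 89.1 ± 27.02 against 38.2 ± 19.5, and Ddit3 or CHOP 854 ± 116 against 275 ± 34.4. NRF2 and antioxidant genes had 10 of 25 higher and 5 lower, with Gsta4, a glutathione transferase, at 239 ± 30.4 against 28.9 ± 10.6. Chaperones of the endoplasmic reticulum had 3 of 23 higher and 9 lower, Creld2 higher at 545 ± 55.02 against 366 ± 51.4 and Manf lower at 994 ± 244 against 1643 ± 127. Heat shock genes had 5 of 14 higher and 3 lower, and 3 and 4 under DESeq2. Hspb8, a small heat shock protein, averaged 1295 ± 191 against 501 ± 48.7.

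Other signalling lists were mixed. YAP and TAZ with their TEAD partners, their targets and the Hippo kinases had 7 of 22 higher and 12 lower. Yap1 averaged 737 ± 179 in the Sox2 guide, 917 in Prkcz-/- sgScr and 1637 ± 103 in WT, and Wwtr1, which encodes TAZ, 925 ± 169, 2391 and 2162 ± 155, both lower than WT. Among the targets Ankrd1 was higher at 9126 ± 1025 against 4233 ± 222 and Ccn1 lower at 189.6 ± 21.6 against 519 ± 129.5. Axon guidance genes had 10 of 31 higher and 15 lower. Sema3d, a secreted semaphorin, averaged 83.7 ± 32.0 against 17.97 ± 3.91, the receptor Epha4 149 ± 32.8 against 42.96 ± 18.7, and Slit2, a repellent, 298 ± 59.99 against 1126 ± 28.2. IGF ligands, receptors, binding proteins and the protease Pappa had 2 of 10 higher and 5 lower. The higher ones were Igf1 and Pappa, which frees IGF from Igfbp4, at 28.5 ± 3.53 against 2.38 ± 1.59, 11.7-fold higher by pooled reads, with an exact 95% counting interval of 3.76 to 58.7. Igf1r, Igf2r and 3 binding proteins were lower, among them Igfbp4 at 72.2 ± 9.76 against 554 ± 31.2. Hedgehog genes had 2 of 10 higher and 4 lower (2 lower without Sox2-guide replicate 3 or 4 or WT replicate 3), with the coreceptors Cdon and Boc at 473 ± 45.4 and 39.5 ± 11.1 against 259 ± 40.7 and 95.1 ± 20.3. Notch genes had 2 of 7 higher and 3 lower, Hes1, a target repressor, at 171 ± 34.7 against 877 ± 83.4. Of the protein kinase C and polarity genes 6 of 14 were higher and 4 lower. Prkci, the other atypical isoform, averaged 577 ± 225 in the Sox2 guide, 595 in Prkcz-/- sgScr and 1085 ± 254 in WT, and Sqstm1, which encodes p62, 4999 ± 478, 6851 and 2168 ± 90.7.

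The third group divided the genes with differences of at least 2 log2 units into kinds, which are described by the levels that chose them and were not tested. Some genes were high in the Sox2 guide while Prkcz-/- sgScr stood at the WT level. Mndal, an interferon-inducible gene of the Ifi200 family, averaged 1534 ± 405 in the Sox2 guide, 145 in Prkcz-/- sgScr and 170.0 ± 11.6 in WT. It overlaps Ifi211 and Ifi203 on its strand, so reads may be shared. Cp, the copper carrier ceruloplasmin, averaged 132 ± 26.7, 14.1 and 14.8 ± 12.2, S100a3 109 ± 8.07, 22.4 and 24.04 ± 10.4, and Il13ra1, a receptor chain for IL-13, 441 ± 90.8, 101 and 108 ± 31.3, in the same order. Cxxc4, a Wnt pathway inhibitor, and Oas3 completed the 6 nearest. Others were low in the Sox2 guide alone. Tenm3, a teneurin adhesion protein, averaged 3.23 ± 2.63, 187 and 177 ± 32.2, and Mageh1 27.4 ± 6.04, 350.2 and 329 ± 56.6. Plscr4, C1qtnf12 and Adam19 had the same pattern.

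In the other kinds both Prkcz-/- groups shared a level away from WT. Tcirg1, a subunit of the proton pump, averaged 772 ± 131 in the Sox2 guide, 762 in Prkcz-/- sgScr and 186 ± 4.53 in WT. Sord, sorbitol dehydrogenase, averaged 456 ± 80.1, 444 and 83.0 ± 13.8, and Phf11b, Ifit1bl2, Irf7 and Repin1 were alike in this. Ank, a pyrophosphate exporter, was lower at 455 ± 35.01, 446 and 2834 ± 59.9, and Plau, urokinase, at 99.01 ± 39.6, 96.8 and 389 ± 61.3. Hgf, Trbc2, Tnfrsf26 and Mcpt8, near 0 in both Prkcz-/- groups, belonged here too.

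Differences were not spread evenly over the chromosomes. The median difference of tested genes was 0.55 on chromosome 19 (429 genes), 0.52 on chromosome 15 (493 genes), and -0.45 on chromosome 9 (714 genes), -0.33 on chromosome 16 (385 genes) and -0.27 on chromosome 8 (660 genes). Chromosomes 2, 4 and 11 had 0.35, 0.35 and 0.34, and the X chromosome 0.30. In each Sox2-guide library taken alone, chromosome 19 lay between 0.50 and 0.75 and chromosome 9 between -0.48 and -0.34. In Prkcz-/- sgScr the medians against WT were 0.39 on chromosome 19, 0.45 on chromosome 15, -0.32 on chromosome 9, 0.03 on chromosome 16 and -0.20 on the X chromosome. On chromosome 19, Ifit1 and Ifit3 are far beyond these medians, as are Hoxc13, Amigo2 and Ly6a on chromosome 15 and Thy1 on chromosome 9. The part of a chromosome-wide shift in the differences of single genes was not tested.

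**Figure D5:**
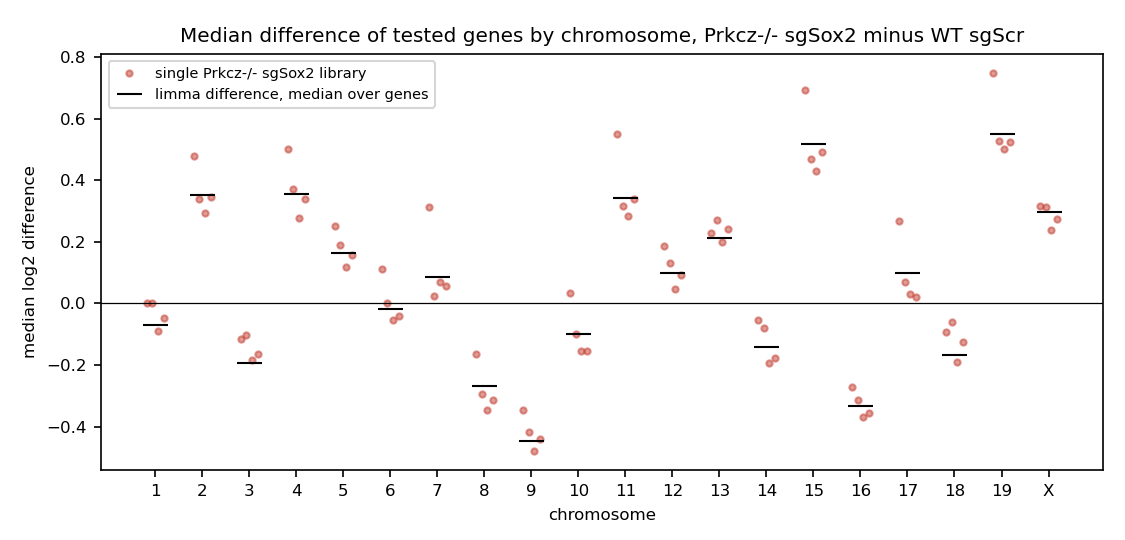
Median log2 difference of the tested genes of each chromosome, Sox2 guide minus WT, from the limma fit (bars) and from each Sox2-guide library against the WT mean (points). Chromosomes 19 and 15 are highest (0.55 and 0.52) and chromosome 9 lowest (-0.45), and replicate 1 has the highest point on most chromosomes.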

How the data were processed

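RNA from cultured mouse colon fibroblasts was made into 3' libraries with QuantSeq FWD from 200 ng of total RNA and read for 75 nt from one end, per the labels' protocols, which name unique molecular identifiers as optional. Per the submitters' processing notes, coordinates refer to GRCm38; no source used here names the aligner, counter, annotation, strand setting or use of the identifiers. The deposited table holds a depth-normalised signal per gene, which the authors scaled to 10000000 per library. Division by the smallest step gave whole reads for 100% of values within 0.01 read, which recovered the depth.

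The comparison used limma 3.58.1 with a trend in R 4.3.3 on log2(signal + 1), fitted to all 12 libraries, for genes with a mean of at least 10, with Benjamini-Hochberg adjustment over 12676 genes at 0.05. Prkcz, Sox2, Sfrp1 and Sfrp2 were tested with an exact permutation test (SciPy 1.17.1). A gene with no read in a group was set at a floor of 3 reads over that group, and one with 1 to 3 reads is given as a ratio of pooled reads with an exact 95% interval; both cover counting error only. Alternatives were pseudocounts 0.5 and 10, a filter of 50 or none, quantile and TMM scaling, rescaling without mitochondrial genes, only the 8 libraries, array weights, a replicate block, edgeR 4.0.16 and DESeq2 1.42.0 on recovered reads, and each library left out. The fit was also run on simulated data with few genes changed and no library standing apart. These data differ in both, so that run does not give the error rates here.

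Genes named are those of the design, the 12 largest changes each way, up to 4 members of each list and those its description needed, genes chosen by the level of the third group, and genes in which 1 library stood apart. Members, lists and tests were chosen with earlier results of these data known. The table's IDs matched symbols for 23002 of 23106 genes. Some results under these rules are not reported here.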

Additional observations from a re-analysis of the deposited data

Results flagged for a closer look

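Values were looked at again where 1 of the 4 libraries of a group lay far from the other 3 by Dixon's test. Chance alone gives this for about 1 in 20 groups, and 540 groups of gene values were checked. The flags below number 28, shares of reads included. Groups with 3 or fewer reads could not be flagged, and genes of 1 library may move together, so the chance share is only a rough guide. More of the Sox2-guide flags fell on replicate 1 than on any other replicate of that group. The causes of the flags were not tested. Sox2-guide replicate 1 was below the rest of its group in Mndal (927, others 1716 to 1758) and the mitochondrial share of reads (4.29%, others 9.39% to 10.3%). Sox2-guide replicate 1 was above the rest of its group in Creld2 (627, others 511 to 523), Ifit1 (7021, others 5370.1 to 5484), Lor (183, others 138 to 145), Ly6c1 (2411, others 1700.3 to 1818), Mmp3 (15.4, others 6.68 to 7.49), Psmb8 (383, others 195 to 207) and Usp18 (1355, others 892 to 941). Sox2-guide replicate 2 was below the rest of its group in Cnn1 (4.45, others 7.41 to 7.69). Sox2-guide replicate 2 was above the rest of its group in Igf1r (886, others 803 to 815). Sox2-guide replicate 3 was below the rest of its group in Il33 (104.9, others 151 to 159.6). Sox2-guide replicate 3 was above the rest of its group in Mx2 (389.7, others 289 to 298) and Prkcz (52.5, others 27.2 to 30.8). Sox2-guide replicate 4 was below the rest of its group in the share of reads on Gm42418 (2.27%, others 3.06% to 3.15%). Sox2-guide replicate 4 was above the rest of its group in Egfl7 (195, others 115 to 127). WT replicate 1 was below the rest of its group in Etv4 (325, others 444 to 463). WT replicate 2 was below the rest of its group in Mmp2 (65.0, others 83.8 to 87.7). WT replicate 3 was above the rest of its group in Bst2 (661, others 486 to 502), Dcn (1514, others 1321 to 1336), Eng (80.8, others 49.3 to 54.2), Isg15 (533, others 422 to 440.3) and Tenm3 (224, others 155 to 166). WT replicate 4 was below the rest of its group in Hoxb13 (3.29, others 12.99 to 14.96) and Tagln (572, others 596 to 601). WT replicate 4 was above the rest of its group in Cp (32.9, others 6.49 to 10.8), Igf1 (131, others 104.8 to 108) and Mndal (187, others 162 to 166).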

How the results depend on the processing

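The 6596 genes called, 3813 higher and 2783 lower, stayed within 1.5 times under every alternative tried. Leaving out 1 library at a time gave 5991 to 6722 calls. The balance moved with the scaling, with 2958 higher and 3230 lower under DESeq2, 3285 and 3336 under TMM and 3328 and 3159 under quantile scaling. Same-numbered libraries of the 2 groups correlated at -0.02 to 0.02 in their deviations from the group means. Much of the deviation between WT libraries is counting error, so paired libraries could correlate as little, and pairing is not excluded. The fit with a replicate block called 6627 genes. Snord89, not called, changed sign without Sox2-guide replicate 1 (0.36, and -2.04 at the other end of the range without 1 library), as did Mtbp (0.65, and -0.35 at the other end), and Vim, not called, under quantile scaling, at -0.30; the cause was not tested. Chemokines called higher were 8 with the filter at 50, where fewer genes were tested, and prostaglandin genes called lower were 5. Depth of 2.67 to 5.20 M reads leaves genes of a few reads with wide intervals. Reads of overlapping or near-identical genes may be shared, and such overlaps are named above for only part of the genes concerned.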
